A study of Mus musculus with 60 samples.

Results

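The imprinted gene cluster of mouse chromosome 6 that is named after Peg10 and Sgce lies beside Pon2, the gene disrupted in PON2-deficient mice. Its transcripts were examined by brain region and genotype. The members were the rows of the deposited count table that map to Peg10, Sgce, Asb4, Calcr, Ppp1r9a, Casd1 and Tfpi2. Of these 7 listed genes, 6 had a row, among 20423 genes in the table, and Tfpi2 had none and is not analysed here. RNA was measured in 60 libraries from 3 brain regions, with 5 libraries for each sex and genotype in a region. The tested mice were female and male homozygous PON2-deficient (PON2-def) mice of the line of Ng and colleagues, and the mice they were compared with were wild-type (WT) littermates of the same sex. Both genotypes came from crosses of heterozygous mice on a C57BL/6J background, entered in rolling cohorts, and were killed at 3 to 4 months of age after behavioural tests. Cortex, striatum and cerebellum were dissected fresh, frozen and pulverised as whole tissue before total RNA was extracted, so a value is an average over all cell types of a piece of tissue. In such bulk samples fewer cells of a type and less RNA per cell cannot be told apart. How the Pon2 gene was disrupted is not given in the sources used here.

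In an imprinted cluster a gene is read mainly from the copy of one parent, because DNA methylation set in the germ line marks CG dinucleotides on only one of the parental copies. Peg10 and Sgce, which start close together and point away from each other, are read from the paternal copy. Asb4, Calcr, Ppp1r9a and Tfpi2 have been described as read more from the maternal copy in some tissues, in Calcr's case in brain. The libraries do not separate the parental copies, so a level here is the sum of both.

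On GRCm38 the 6 measured genes span 1.75 Mb of chromosome 6, in the order Calcr (3685680 to 3764714, minus strand), Casd1 (4600839 to 4643355, plus strand), Sgce (4674350 to 4747207, minus strand), Peg10 (4747306 to 4760517, plus strand), Ppp1r9a (4902917 to 5165661, plus strand) and Asb4 (5383386 to 5433022, plus strand). All are annotated as protein-coding genes in GENCODE M21. The starts of Sgce and Peg10 are 99 bp apart, which is the closest pair of starts in the cluster. Pon2 (5264147 to 5298455, minus strand) sits between Ppp1r9a and Asb4. Counted from the start of Pon2 along the chromosome, the start of Asb4 is at 84.9 kb on one side, and on the other side Ppp1r9a starts at −396 kb, Peg10 and Sgce at −551 kb, Casd1 at −698 kb and Calcr at −1534 kb. No other annotated gene shares exon bases with any of the 6, so none of their counts is split by an overlapping gene.

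Because CG dinucleotides can carry methylation, promoters of the 4 measured members that RefSeq's promoter table holds are shown, 1 for each, with every CG in capitals. It holds no window for Peg10 or Sgce, and a CG in capitals is not a mapped site of the imprinting mark. For each of the 4 genes shown the table holds 2 windows. Shown is the one with more CG for Calcr, Casd1 and Ppp1r9a, and the one at the start of the gene for Asb4. Each runs from 250 bases before to 50 bases after a transcription start on GRCm38.p6, in the direction of the gene.

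Calcr promoter, chr6:3763574-3763873, minus strand: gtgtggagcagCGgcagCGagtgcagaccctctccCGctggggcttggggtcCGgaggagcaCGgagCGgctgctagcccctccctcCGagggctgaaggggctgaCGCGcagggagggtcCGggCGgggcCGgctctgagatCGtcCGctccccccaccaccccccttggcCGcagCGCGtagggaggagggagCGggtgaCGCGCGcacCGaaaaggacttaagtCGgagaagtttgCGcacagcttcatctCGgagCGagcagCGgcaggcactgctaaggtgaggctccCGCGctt
Casd1 promoter, chr6:4600661-4600960, plus strand: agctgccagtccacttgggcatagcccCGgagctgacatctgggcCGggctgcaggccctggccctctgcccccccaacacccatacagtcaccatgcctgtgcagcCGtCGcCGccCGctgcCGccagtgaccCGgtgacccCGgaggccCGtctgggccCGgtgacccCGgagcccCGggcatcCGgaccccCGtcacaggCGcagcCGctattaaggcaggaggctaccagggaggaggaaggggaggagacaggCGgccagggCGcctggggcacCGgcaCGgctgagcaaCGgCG
Ppp1r9a promoter, chr6:4903061-4903360, plus strand: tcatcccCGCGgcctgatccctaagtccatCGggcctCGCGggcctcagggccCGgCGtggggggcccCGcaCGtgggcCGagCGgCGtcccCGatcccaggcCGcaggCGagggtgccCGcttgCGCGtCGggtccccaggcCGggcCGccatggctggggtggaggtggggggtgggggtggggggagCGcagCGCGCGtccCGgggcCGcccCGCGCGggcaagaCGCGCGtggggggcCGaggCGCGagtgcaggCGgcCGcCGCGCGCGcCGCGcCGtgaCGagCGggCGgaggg
Asb4 promoter, chr6:5383136-5383435, plus strand: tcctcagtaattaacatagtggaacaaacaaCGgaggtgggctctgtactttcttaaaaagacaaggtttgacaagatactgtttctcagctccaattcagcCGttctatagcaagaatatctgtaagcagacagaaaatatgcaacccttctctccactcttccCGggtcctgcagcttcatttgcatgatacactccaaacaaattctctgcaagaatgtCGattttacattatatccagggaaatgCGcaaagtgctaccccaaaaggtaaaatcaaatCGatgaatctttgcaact

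CG content differed between genes and between the starts of 1 gene. The motif CG, which reads the same on both strands, occurs 48 times in the Ppp1r9a window, a number that 1.22% of the 32851 promoters in the table reach. It occurs 29 times in the Calcr window (reached by 12.9%) and 23 times in the Casd1 window (reached by 21.5%). The Asb4 window has 6 (reached by 56.4%), against a median of 7 over all promoters, of which 94.6% hold at least 1. Of the windows not shown, that of Ppp1r9a has 10 (reached by 43.5%), that of Calcr 4 (68.6%), that of Casd1 5 (62.0%) and that of Asb4, at a start within the gene, 8 (48.6%). For Calcr and Ppp1r9a the window not shown lies nearer the outermost start of the gene, from which the distances above were counted, so the order of the genes by CG depends on the start chosen. These counts describe the sequence, and methylation was not measured.

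Expression levels are given in CPM, the estimated counts of a gene scaled to a common library size after TMM adjustment. Libraries held 26091911 to 28125224 counts, so 1 CPM stood for 25.2 to 29.9 counts, and between 19944 and 20229 genes were detected in each. Pon2 itself averaged 3.45 ± 0.916 CPM in PON2-deficient cortex against 55.5 ± 2.84 CPM in wild-type cortex (SD, n = 10 each). It averaged 3.86 ± 1.35 against 51.2 ± 3.80 CPM in PON2-deficient and wild-type striatum, and 0.761 ± 0.295 against 42.9 ± 4.16 CPM in PON2-deficient and wild-type cerebellum, with no overlap of the genotypes in any region. Summed CPM of 8 striatal projection neuron markers was 3721 to 7390 in striatum, 637 to 1283 in cortex and 278 to 358 in cerebellum, as the region labels say. PON2-deficient male 5 of striatum stood apart, since the precision weights deposited for it averaged 0.0527 times the median of its region, and the genotype changes in striatum are given with and without it. The labels do not say whether equal replicate numbers in different regions come from the same mouse, and p-values measure the spread between these libraries.

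Per length of exon, the cluster fell into genes of very different abundance. Ppp1r9a encodes neurabin, a scaffold that holds protein phosphatase 1 at actin in dendritic spines. It was the highest member in striatum at 34.7 ± 5.21 CPM per kb (SD, n = 20) and in cortex at 19.2 ± 1.29. Casd1, the sialic acid O-acetyltransferase of the Golgi, came next at 18.3 ± 1.45 in striatum and 13.7 ± 0.86 in cortex, and in cerebellum it was first at 19 ± 1.28 CPM per kb, ahead of Ppp1r9a at 8.84 ± 0.520. The ranges of Ppp1r9a and Casd1 over the 20 libraries did not overlap in any region. Peg10, a gag-pol gene domesticated from a retrotransposon, followed at 8.66 ± 3.39 in striatum, 4.69 ± 1.68 in cortex and 3.23 ± 0.707 CPM per kb in cerebellum. Sgce, which encodes epsilon-sarcoglycan of the dystrophin-associated complex and is mutated in human myoclonus-dystonia, was at 2.43 ± 0.303 in striatum, 1.80 ± 0.171 in cortex and 2.14 ± 0.135 CPM per kb in cerebellum. The ranges of Peg10 and Sgce overlapped at their edges in cortex and cerebellum, though not in striatum. With the longest transcript in place of all exons Sgce (5.15) stood above Peg10 (3.23 CPM per kb) in cerebellum.

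Asb4 and Calcr were scarce everywhere. Asb4, which encodes a SOCS box protein that brings substrates to a cullin ubiquitin ligase, measured 0.338 ± 0.219 in striatum, 0.235 ± 0.151 in cortex and 0.203 ± 0.133 CPM per kb in cerebellum. Calcr, the receptor for calcitonin and, with RAMP partners, for amylin, measured 0.492 ± 0.256 in striatum, 0.249 ± 0.181 in cortex and 0.0593 ± 0.0467 CPM per kb in cerebellum. The order of this pair did not exceed the spread in cortex or striatum, and in cortex it was Asb4 over Calcr in the PON2-deficient libraries (0.146 and 0.132 CPM per kb) and Calcr over Asb4 in the wild-type ones (0.365 and 0.324).

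**Figure D1:**
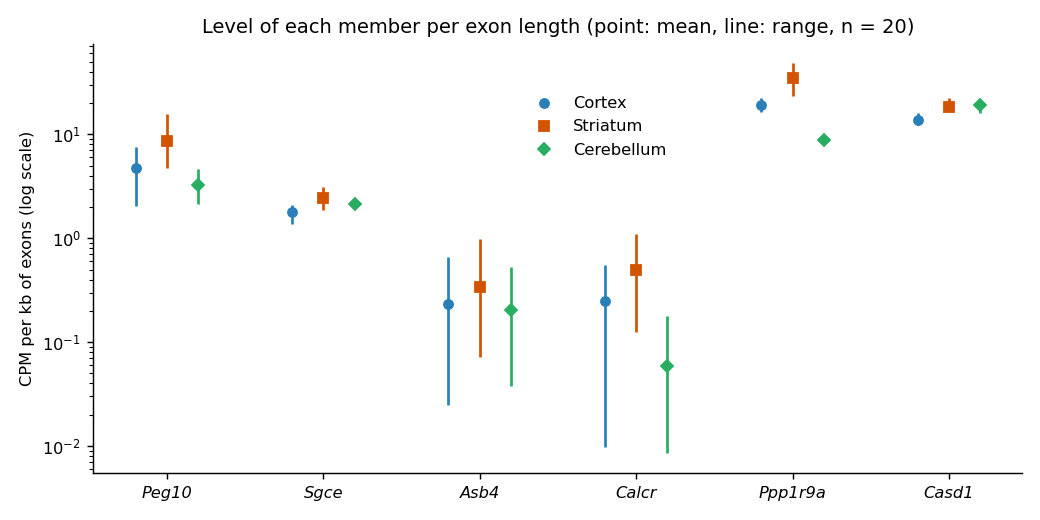
Mean level (points) and range (lines) of each member in CPM per kb of exons on a log scale, over the 20 libraries of cortex, striatum and cerebellum. The lowest library of Ppp1r9a or Casd1 is at 7.90 and the highest of Asb4 or Calcr at 1.10 CPM per kb, and Ppp1r9a stands first in striatum (34.7) and cortex (19.2) and below Casd1 in cerebellum (8.84).

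Every measured member but Casd1 had its highest mean in striatum, and Casd1 had it in cerebellum. In a fit of all 60 libraries all 6 members passed the threshold of an adjusted p of 0.05 as higher in striatum than in cortex (edgeR's quasi-likelihood test with Benjamini-Hochberg adjustment). Over all 20387 genes 57% passed in that comparison and 28.8% were higher in striatum. Peg10 averaged 57.8 ± 22.6 CPM in striatum and 31.3 ± 11.2 CPM in cortex (SD, n = 20 each, log2 difference 0.91, SE 0.14). Ppp1r9a averaged 504 ± 75.7 CPM in striatum and 279 ± 18.7 CPM in cortex (0.85, SE 0.045), and no striatal library was as low as the highest cortical one (342 against 322 CPM). Calcr differed by 1.17 (SE 0.25), Sgce by 0.44 (SE 0.045), Casd1 by 0.41 (SE 0.029) and Asb4 by 0.57 (SE 0.23) on the log2 scale. The Asb4 difference was the weakest, with an edgeR adjusted p of 0.0283. It missed the threshold when striatal wild-type female 1 (0.0570), striatal wild-type male 3 (0.0781) or the deviating striatal PON2-deficient male 5 (0.103) was left out.

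Ppp1r9a, Peg10 and Calcr were lowest in cerebellum. Against striatum, Calcr, Ppp1r9a, Peg10, Asb4 and Sgce were lower in cerebellum and Casd1 did not pass the threshold, while over all genes 79.8% passed and 40.2% were lower. Ppp1r9a was at 128 ± 7.56 CPM in cerebellum (n = 20), 1.97 lower than in striatum on the log2 scale (SE 0.047). Peg10 was at 21.6 ± 4.72 CPM in cerebellum (−1.43, SE 0.14), and Calcr at 0.232 ± 0.183 CPM, against 1.93 ± 1.0 CPM in striatum (−3.06, SE 0.29). Against cortex, Sgce (0.26, SE 0.045) and Casd1 (0.46, SE 0.029) were higher in cerebellum, and Peg10 (−0.52, SE 0.14), Calcr (−1.89, SE 0.31) and Ppp1r9a (−1.12, SE 0.046) were lower, where 79.6% of all genes passed, 40.1% higher and 39.5% lower. Asb4 did not pass between cerebellum and cortex (−0.31, SE 0.24, adjusted p = 0.237), and Casd1 did not between cerebellum and striatum (0.052, SE 0.028, adjusted p = 0.0882). Without striatal PON2-deficient male 5 that difference of Casd1 reached an edgeR adjusted p of 0.0102, and without cerebellar wild-type male 4 it reached 0.0402. Sgce and Peg10, whose starts adjoin, differed in opposite directions between cerebellum and cortex.

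To ask whether loss of PON2 was accompanied by changes in its imprinted neighbours, the genotypes were compared within each region over 10 PON2-deficient and 10 wild-type libraries, as the mean of the effects in females and males. Of the 17 values tested, 1 passed: Asb4 was lower in PON2-deficient cerebellum. In cerebellum 1 of 5 tested members was called and 0.0321% of all 18710 genes (0.0214% lower). In cortex 0 of 6 members were called, with 0.0316% of 18972 genes, and in striatum 0 of 6, with 0.0105% of 18962 genes. At an unadjusted p under 0.05 there were 2 members in cortex (11.4% of all genes), 1 in striatum (4.94%) and 3 in cerebellum (11.1%). DESeq2 called 2 members in cortex, 0 in striatum and 2 in cerebellum, but it also called 232, 6 and 242 of all genes there. Limma on the deposited log2 values and weights called 0, 0 and 1 members, the last beside 18 genes in cerebellum. For Asb4 in striatum DESeq2 gave no adjusted p (unadjusted p = 0.0423), so it could not be called there. In each region Casd1 had a higher estimate in PON2-deficient mice and all other tested members had a lower one, with median log2 changes of −0.23 in cortex, −0.048 in striatum and −0.070 in cerebellum, against all-gene medians of −0.00056, 0.0098 and 0.00087.

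**Figure D2:**
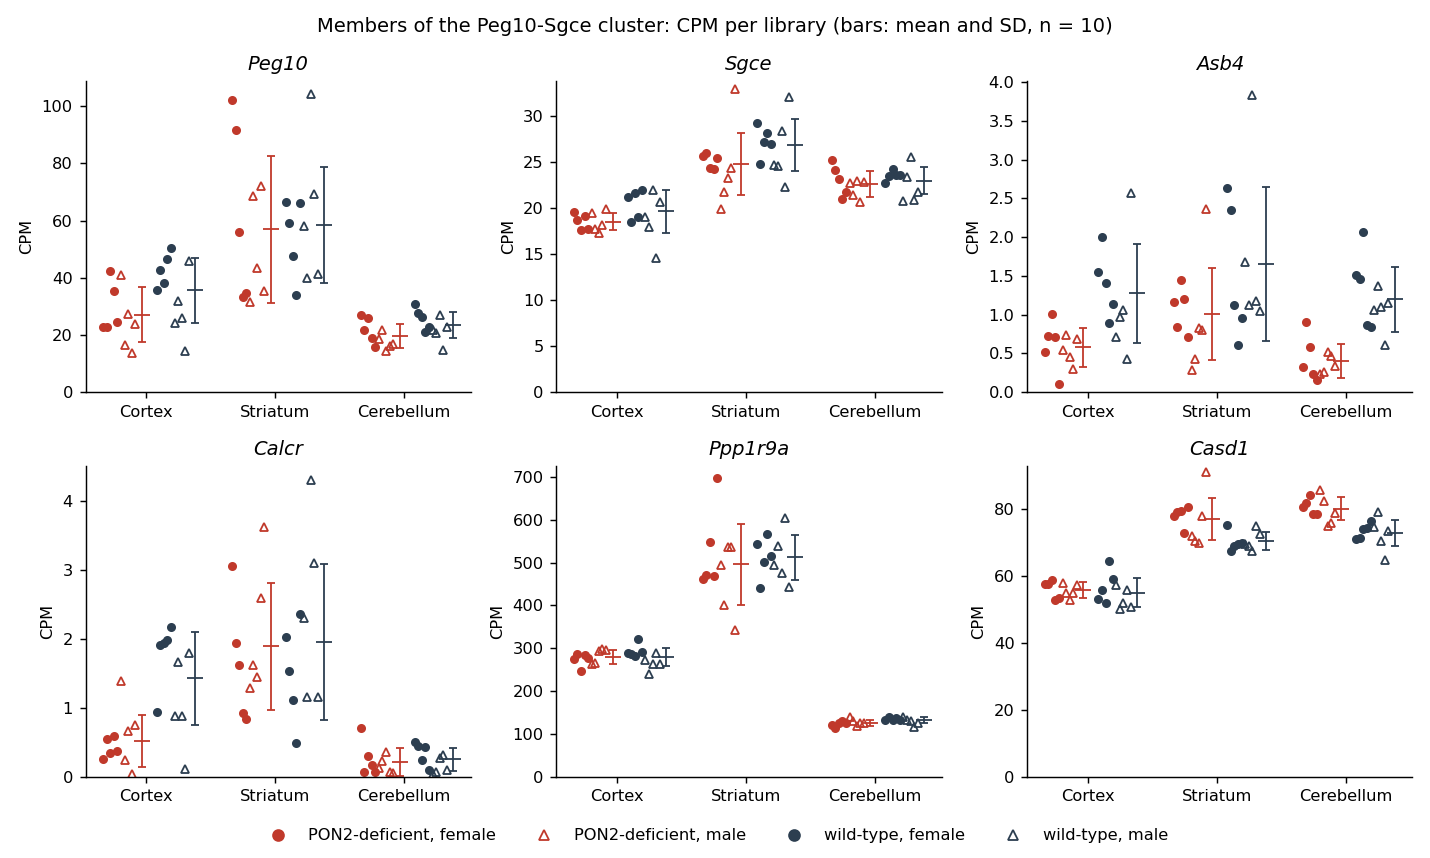
CPM of each member in every library by region, with PON2-deficient (red) left of wild-type (dark) and the mean and SD of 10 libraries beside the points. Asb4 is at 0.150 to 0.901 CPM in PON2-deficient cerebellum and 0.601 to 2.06 CPM in wild-type cerebellum. Over both sexes the genotypes overlap for every member in every region.

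Asb4 is the member nearest to Pon2. In cerebellum it measured 0.323, 0.901, 0.580, 0.235 and 0.150 CPM in the 5 PON2-deficient females and 0.234, 0.261, 0.517, 0.471 and 0.342 CPM in the 5 PON2-deficient males. Wild-type females had 1.51, 1.46, 2.06, 0.860 and 0.837 CPM, and wild-type males had 1.05, 1.36, 1.1, 0.601 and 1.15 CPM. In males every PON2-deficient library was below every wild-type one, as for 1.02% of all genes, and in females a single PON2-deficient library (0.901 CPM) lay within the wild-type range. The group means were 0.401 ± 0.223 and 1.2 ± 0.418 CPM in PON2-deficient and wild-type cerebellum (SD, n = 10 each), and the log2 change was −1.55 (SE 0.27, edgeR adjusted p = 0.0421). These are small numbers of estimated counts, 4.26 to 26.5 in a PON2-deficient and 17.5 to 59.3 in a wild-type library.

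The size of the Asb4 difference in cerebellum was more stable than its call. Leaving out 1 library at a time gave log2 changes between −1.77 and −1.43, all lower, and unadjusted edgeR p-values of 8.5e-07 to 3.6e-05. The adjusted p, which also depends on the p-values of all other genes, ranged from 0.0080 to 0.113. Without PON2-deficient male 1 an unadjusted p of 3.51e-05 passed (adjusted 0.0442), and without wild-type female 4 one of 9.96e-06 did not (0.0585). The threshold was missed in 11 of the 20 fits. Among PON2-deficient libraries these were the fits without females 1 (0.0722) and 4 (0.0635) and without males 2 (0.0784) and 5 (0.113). Among wild-type libraries they were those without females 1 (0.0555), 2 (0.0855), 3 (0.0604) and 4 (0.0585) and without males 1 (0.0617), 2 (0.0781) and 5 (0.0674). Over 10 alternatives that kept all libraries the adjusted p lay between 0.00014 and 0.173, and it missed the threshold with a covariate for choroid plexus, hypothalamic or meningeal markers and in the fit over all 60 libraries (0.0551). Most hypothalamic markers were scarce in cerebellum, with means of 0.164 CPM for Avp and 0.116 CPM for Oxt. Hdc was the highest at 4.99 CPM. With that covariate the change of Asb4 was −1.46. Markers of meninges and vascular leptomeningeal cells moved with the Asb4 difference. All 12 of them had a lower estimate in PON2-deficient cerebellum (median log2 change −0.20, 0 called), where 49.6% of all genes did, none was at 0 in all libraries, and their summed level was 169 to 310 CPM in PON2-deficient and 235 to 307 CPM in wild-type libraries. Across the 20 cerebellar libraries, as deviations from the group means, Asb4 went with the mean of these markers (Pearson's r = 0.726, permutation p adjusted over 221 relations = 0.0171; Spearman's rho = 0.744, adjusted p = 0.0149; r = 0.644 without the 2 libraries farthest from the median). With that mean as a covariate, chosen after seeing the data, the change of Asb4 was −1.10 and its adjusted p 0.173. The meningeal list includes Col1a2, which starts at −794 kb from Pon2 (log2 change −0.28 in PON2-deficient cerebellum, SE 0.073). A mean without Col1a2 was not tested. All 22 choroid plexus markers also had a lower estimate there (median −0.34, 0 called), with summed levels of 411 to 4778 CPM in PON2-deficient and 1278 to 4146 CPM in wild-type libraries. With their mean as a covariate the change of Asb4 was −1.45 (adjusted p = 0.0804).

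In cortex and striatum Asb4 had lower means in PON2-deficient mice without passing the test. In cortex it measured 0.511, 0.722, 1.01, 0.705 and 0.0975 CPM in PON2-deficient females and 0.540, 0.738, 0.454, 0.299 and 0.686 CPM in PON2-deficient males. Wild-type cortex had 1.55, 2.00, 1.41, 0.895 and 1.14 CPM in females and 0.71, 0.970, 1.06, 0.433 and 2.57 CPM in males. The highest PON2-deficient library thus lay above the lowest wild-type ones in both sexes. The log2 change was −1.11 (SE 0.31, edgeR adjusted p = 0.146), and DESeq2 called it (adjusted p = 0.0458) while the other 9 alternatives did not. In striatum the range was 0.285 to 2.36 CPM in PON2-deficient and 0.612 to 3.83 CPM in wild-type libraries, with medians of 0.832 and 1.15 CPM (log2 change −0.71, SE 0.35, adjusted p = 0.995). Without the deviating PON2-deficient male 5, which held the highest PON2-deficient value, it was −1.04 (adjusted p = 0.366). The 6 estimates by sex and region were all negative, between −1.60 and −0.50. The change did not differ detectably between regions (cerebellum minus cortex −0.44, SE 0.48, adjusted p = 1.0; cerebellum minus striatum −0.84, SE 0.46, adjusted p = 0.858).

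Calcr differed most in cortex, where it did not pass the test either. PON2-deficient females had 0.260, 0.542, 0.348, 0.597 and 0.371 CPM and wild-type females 0.934, 1.92, 1.94, 1.99 and 2.17 CPM, so that the females did not overlap, as for 0.575% of all genes. PON2-deficient males had 1.38, 0.234, 0.666, 0.0379 and 0.744 CPM and wild-type males 0.877, 1.67, 0.886, 0.113 and 1.79 CPM, which overlapped over most of their range. The means were 0.518 ± 0.374 and 1.43 ± 0.678 CPM in PON2-deficient and wild-type cortex (SD, n = 10 each), a log2 change of −1.42 (SE 0.39, edgeR adjusted p = 0.139). In females alone it was −2.06 (SE 0.55, adjusted p = 0.405) and in males −0.78 (SE 0.54, adjusted p = 0.542), and the difference between the sexes did not pass (1.29, SE 0.77, adjusted p = 0.623). DESeq2 called Calcr in cortex over both sexes (adjusted p = 0.0413), and over all 10 alternatives the adjusted p reached up to 0.369. In striatum the genotypes had nearly the same mean, 1.90 ± 0.921 and 1.96 ± 1.13 CPM in PON2-deficient and wild-type mice (log2 change −0.019, SE 0.31), and without PON2-deficient male 5 the change was −0.16 (edgeR adjusted p = 0.922). The striatal change minus the cortical one was 1.40 (SE 0.51, unadjusted p = 0.00786, adjusted p = 0.654). In cerebellum Calcr was at 0.0593 to 0.700 CPM in PON2-deficient and 0.0332 to 0.506 CPM in wild-type libraries, and the filter on low counts removed it from the test.

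Peg10 varied more between libraries than the other 3 abundant members, with a coefficient of variation of 35.8% in cortex, 39.1% in striatum and 21.9% in cerebellum (n = 20 each), against at most 15% for Sgce, Ppp1r9a and Casd1. In cortex it measured 22.6, 22.6, 42.3, 35.4 and 24.4 CPM in PON2-deficient females and 40.9, 16.6, 27.5, 13.7 and 23.9 CPM in PON2-deficient males. Wild-type females had 35.8, 42.7, 38.1, 46.6 and 50.3 CPM and wild-type males 24.2, 31.8, 26.1, 14.4 and 45.8 CPM. Each PON2-deficient group overlapped its wild-type group, with 4 of 5 PON2-deficient females below all wild-type females. The log2 change was −0.38 (SE 0.19, edgeR adjusted p = 0.472). In striatum the lowest, median and highest values were 31.5, 49.8 and 102 CPM in PON2-deficient and 34.0, 58.5 and 104 CPM in wild-type libraries (−0.046, SE 0.23; 0.0060 without PON2-deficient male 5). In cerebellum they were 14.2, 18.7 and 26.8 CPM in PON2-deficient and 14.7, 22.7 and 30.7 CPM in wild-type libraries (−0.26, SE 0.11, adjusted p = 0.383). Sgce, its divergent neighbour, had much smaller spread. It averaged 18.5 ± 0.922 and 19.6 ± 2.33 CPM in PON2-deficient and wild-type cortex (−0.085, SE 0.060), 24.7 ± 3.40 and 26.8 ± 2.81 CPM in PON2-deficient and wild-type striatum (−0.11, SE 0.078; −0.18 with an adjusted p of 0.446 without PON2-deficient male 5), and 22.5 ± 1.42 and 23 ± 1.5 CPM in PON2-deficient and wild-type cerebellum (−0.025, SE 0.044), each with overlapping genotypes and an adjusted p of 0.630 or more over all libraries. All 6 estimates of Sgce by sex and region were negative, between −0.14 and −0.019.

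Markers of hypothalamus, like Peg10, Calcr and Asb4, mostly had lower estimates in PON2-deficient cortex. Within groups of cortex only Peg10 passed as correlated with them, as given below. Of 9 tested hypothalamic and pituitary markers 8 had a lower estimate in PON2-deficient cortex (median log2 change −0.75, 0 called), where 50.2% of all genes did. The summed level of the 10 markers in the table was 5.36 to 167 CPM in PON2-deficient and 8.84 to 127 CPM in wild-type cortex, with medians of 12.7 and 51.0 CPM, and none was at 0 in all libraries. Most of this was the neuropeptide genes Avp and Oxt, at means of 16.6 and 12 CPM in cortex. With the mean of these markers as a covariate, added after seeing the data, the cortical change of Peg10 was −0.061, that of Calcr −0.90 and that of Asb4 −0.72 (edgeR adjusted p = 0.911, 0.369 and 0.344). The choroid plexus markers also had lower estimates in PON2-deficient cortex, 22 of 22, with a summed level of 297 to 1086 CPM in PON2-deficient and 320 to 1088 CPM in wild-type libraries. With them as a covariate these changes were −0.30, −1.38 and −0.97.

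Casd1 and Ppp1r9a, the most abundant members, differed little in size between genotypes. Casd1 measured 80.8, 82.0, 84.5, 78.5 and 78.6 CPM in PON2-deficient and 71.0, 71.4, 74.1, 74.3 and 76.4 CPM in wild-type cerebellum of females, so that every PON2-deficient female was above every wild-type one, as for 0.561% of all genes. In males it measured 86.0, 82.4, 74.9, 76.0 and 79.0 CPM in PON2-deficient and 74.8, 79.2, 70.4, 64.8 and 73.6 CPM in wild-type cerebellum, with overlap. The log2 change was 0.14 (SE 0.036), about 9.96% higher, and edgeR's adjusted p was 0.149, whereas DESeq2 gave 0.0230 and the other 9 alternatives between 0.0997 and 0.337. In striatum Casd1 averaged 77.2 ± 6.32 CPM in PON2-deficient and 70.5 ± 2.79 CPM in wild-type libraries (0.13, SE 0.047, adjusted p = 0.844), and without PON2-deficient male 5 the change was 0.096 (adjusted p = 0.448). In cortex it averaged 55.9 ± 2.32 and 55.1 ± 4.44 CPM in PON2-deficient and wild-type libraries (0.019, SE 0.040), and the change of Casd1 in cerebellum minus that in cortex was 0.12 (SE 0.057, adjusted p = 1.0).

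Ppp1r9a did not pass the test in any region. It averaged 279 ± 16.2 CPM in PON2-deficient and 280 ± 21.8 CPM in wild-type cortex, a log2 change of −0.0053 (SE 0.038). In striatum it averaged 496 ± 95.6 and 513 ± 52.8 CPM in PON2-deficient and wild-type mice (−0.050, SE 0.094; −0.0041 without PON2-deficient male 5), and in cerebellum 125 ± 7.13 and 132 ± 6.90 CPM (−0.070, SE 0.037, edgeR adjusted p = 0.494). PON2-deficient cerebellum of females, at 121, 115, 124, 130 and 126 CPM, was below wild-type cerebellum of females, at 132, 138, 133, 138 and 132 CPM, without overlap, as for 0.502% of all genes. In males the genotypes overlapped, at 117 to 140 CPM in both.

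**Figure D3:**
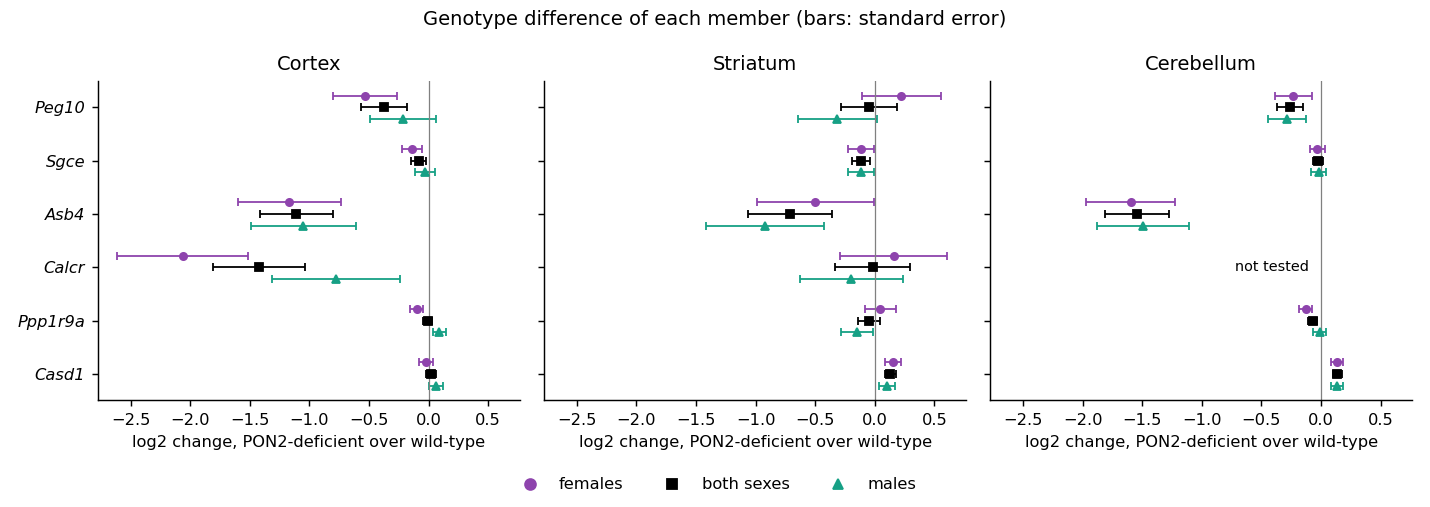
Log2 change of each member, PON2-deficient over wild-type, with its standard error in females (circles), both sexes (squares) and males (triangles) of each region. Asb4 lies left of 0 in all 3 regions, Calcr does so in cortex (−1.42), and Peg10, Sgce, Ppp1r9a and Casd1 lie between −0.53 and 0.22 in each sex.

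Within one sex no member passed the test. In PON2-deficient against wild-type females edgeR called 0 members in cortex, striatum and cerebellum, where 0.00527%, 0.00527% and 0.00534% of all genes were called. At an unadjusted p under 0.05 there were 2, 1 and 3 members in females of those regions, beside 6.6%, 4.08% and 5.16% of genes. In PON2-deficient against wild-type males it called 0 members likewise (0.148%, 0.00527% and 0.016% of genes), and 1, 0 and 2 had an unadjusted p under 0.05 (14%, 5.96% and 10.6% of genes). DESeq2 called 0 members in each sex and region, but some could not be called because it gave them no adjusted p. These were Asb4 and Calcr in cortex of females and in striatum of males, and Asb4 in cerebellum of males.

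Sex by itself and the sex of the mouse as a modifier were also tested. No genotype effect of a member differed between males and females by edgeR or DESeq2, where edgeR called 0% of genes in each region. The member with the smallest unadjusted p, and the only one under 0.05, was Ppp1r9a of cortex (0.0205), beside 9.56%, 4.31% and 4.73% of genes in cortex, striatum and cerebellum. Between males and females edgeR called 0 members and 0.0896%, 0.105% and 0.118% of genes in those regions, and DESeq2 called 0 members. Peg10 had the smallest p, with a male minus female log2 difference of −0.42 in cortex (SE 0.19, edgeR adjusted p = 0.449), while that in cerebellum was −0.29 (SE 0.11, adjusted p = 0.585). It was the member under an unadjusted p of 0.05 in these regions, and striatum had 0, beside 10.5%, 7.82% and 7.24% of genes. The genotype effect of no member differed between regions by edgeR or DESeq2, where edgeR called 0% (striatum minus cortex), 0.0147% (cerebellum minus cortex) and 0.00981% of genes (cerebellum minus striatum). At an unadjusted p under 0.05 there were 1, 1 and 0 members in these comparisons, Calcr and Casd1, beside 6.3%, 4.15% and 5.97% of genes.

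Other genes of the neighbourhood were compared for context. Within 2000 kb on either side of the start of Pon2, 0 of 21 non-member genes were called in cortex, 0 of 21 in striatum and 0 of 15 in cerebellum, and 14, 13 and 9 of them had a lower estimate in PON2-deficient mice (median log2 changes of −0.055, −0.025 and −0.045). In cerebellum the nearest ones on the far side of Pon2 from Asb4 had the largest negative estimates. Pon3, a paralog of Pon2 at −42.2 kb, was at 1.05 ± 0.597 CPM in PON2-deficient and 2.43 ± 1.04 CPM in wild-type cerebellum (−1.20, SE 0.30, edgeR adjusted p = 0.146), and Gm44250, an unclassified transcript at −78 kb, had a log2 difference of −0.78 (SE 0.16, adjusted p = 0.0817). On Asb4's own side the next gene, Pdk4, a kinase of the pyruvate dehydrogenase complex at 198 kb, had a log2 difference of −0.14 in cerebellum (SE 0.11). In cortex Gm44250 was at −0.49 (SE 0.13, edgeR adjusted p = 0.124) and Pon3 at −0.25 (SE 0.24). In striatum Gm44250 was at −0.29 (SE 0.15) and Pon3 at −0.019 (SE 0.20). Gm44250 and Pdk4 were named after their values were seen.

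**Figure D4:**
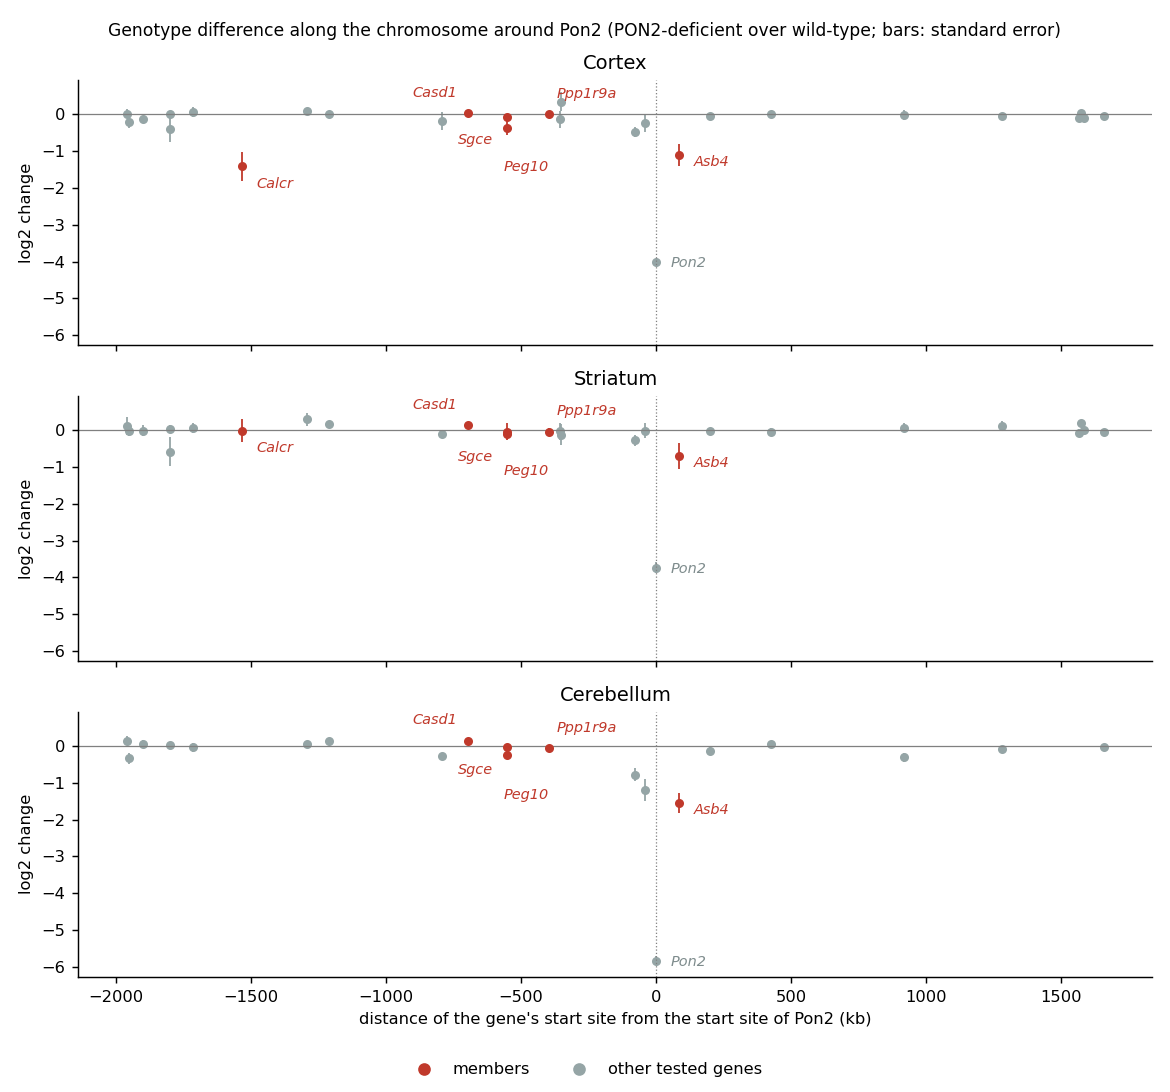
Log2 change (PON2-deficient over wild-type, with standard error) of members (red) and other tested genes (grey) against the distance of their start from that of Pon2, in kb. Pon2 itself is at −4.01, −3.74 and −5.82, and in cerebellum Asb4 (−1.55) and Pon3 (−1.20) on either side of it are lower than the remaining genes of the window.

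Imprinted genes elsewhere in the genome showed no common shift. Of 63 others tested in cortex 29 had a higher and 34 a lower estimate in PON2-deficient mice, in striatum 36 and 26 of 62, and in cerebellum 35 and 24 of 59, with 0 called in each. Their medians were −0.0049, 0.032 and 0.0085 on the log2 scale, beside all-gene medians of −0.00056, 0.0098 and 0.00087. The smallest p in cerebellum belonged to Dcn, a proteoglycan gene that is also in the meningeal list (−0.33, SE 0.065, edgeR adjusted p = 0.0641), in cortex to Zdbf2 (0.25, SE 0.077, adjusted p = 0.194) and in striatum to Snurf (−0.36, SE 0.13, adjusted p = 0.848). Partners and relatives of the members were likewise not called in any region. Among the sarcoglycan and dystrophin complex, the partners of Sgce, 11 of 16 tested genes had a higher estimate in PON2-deficient cortex, 7 of 16 in striatum and 6 of 17 in cerebellum. The smallest p of each region there belonged to Sntb2 (0.30), Sgca (−1.26) and Sspn (−0.17 on the log2 scale). Most gag-derived relatives of Peg10 had a lower estimate in PON2-deficient cortex, where all genes were near evenly divided, as given above. This direction was not tested. Of these relatives 3, 13 and 12 of 19 had a higher estimate, with Ccdc8 (0.20), Arc (0.49) and Pnmal2 (−0.11) at the smallest p of cortex, striatum and cerebellum. The calcitonin receptor family had 2, 3 and 2 of 7, led by Ramp1 in cortex (−0.044) and Ramp3 in striatum (−0.41) and cerebellum (−0.11). Protein phosphatase 1 and its spine partners had 5, 5 and 6 of 11, led by Kalrn (0.074), Rgs2 (0.29) and Ppp1r1b (−0.16). Genes of sialic acid metabolism had 9, 8 and 12 of 18, led by St3gal1 (0.10), Neu4 (0.13) and Neu2 (−0.30). The SOCS box ligases had 13, 11 and 9 of 18, led by Elob (−0.091), Asb13 (−0.092) and Socs2 (−0.29). Kunitz inhibitors and coagulation genes, relatives of Tfpi2, had 4 and 7 of 10 in cortex and striatum and 3 of 9 in cerebellum, led by Serpine2 (−0.12), F3 (0.16) and Plat (0.22). The edgeR adjusted p of these leading genes was 0.149 or more. A broader list of genes beside the cluster on chromosome 6 had 0 called of 31, 31 and 28, led by Cyp51 in cortex (0.28, SE 0.060, adjusted p = 0.0652), Bet1 in striatum (0.16, SE 0.071, adjusted p = 0.982) and Pon3 in cerebellum.

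Within groups, the members did not vary as a block. Deviations from the group mean of log2 CPM were correlated between members over the 20 libraries of each region, 40 relations in all, and Peg10 and Calcr, which lie 983 kb apart by their starts, varied together. Their r was 0.844 in cortex (rho = 0.783; permutation p adjusted over the 40 relations = 4e-04 for r and 0.0022 for rho; r = 0.747 without the 2 libraries farthest from the median). In striatum r was 0.774 (rho = 0.783; adjusted p = 0.0018 and 0.0020; 0.696 without the 2 farthest libraries and 0.883 without PON2-deficient male 5). The raw permutation p in cortex, 1e-05, is the smallest that the resamples can give. Asb4 and Calcr were related in striatum (r = 0.650, adjusted p = 0.0280; rho = 0.611, adjusted p = 0.0727; r = 0.608 without PON2-deficient male 5 and 0.524 without the 2 farthest libraries). Sgce and Casd1 in striatum reached r = 0.641 (adjusted p = 0.0488; rho = 0.523, adjusted p = 0.191), which rested on single libraries, since it was 0.337 without PON2-deficient male 5 and 0.283 without the 2 farthest libraries. No pair passed in cerebellum. Sgce and Peg10, despite their adjoining starts, had an r of 0.397 in cortex (adjusted p = 0.184; rho = 0.192, adjusted p = 0.587).

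The same deviations were set against 13 lists of cell type and region markers, 221 relations in all, of which 5 passed after adjustment. Besides Asb4 with the meningeal list, these were Peg10 with the hypothalamic list in cortex (r = 0.824, rho = 0.809, adjusted p = 0.00221 and 0.00773; r = 0.758 without the 2 farthest libraries) and 3 relations in striatum. Ppp1r9a went against the astrocyte list (r = −0.842, rho = −0.860, adjusted p = 0.00221 for each; −0.835 without PON2-deficient male 5). Casd1 went with striatal projection neuron markers (r = 0.683, rho = 0.755, adjusted p = 0.0171 and 0.0149; 0.729 without that library) and with microglial markers (r = 0.690, adjusted p = 0.0393; rho = 0.516, adjusted p = 0.177; 0.538 without that library). The permutations treat the 20 libraries of a region as exchangeable after 4 group means have been removed, which makes these p-values slightly too small.

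Each member's closest companions were sought among the 15832 genes averaging 1 CPM or more in striatum, or the 15457 doing so in cerebellum for Casd1, over the 20 libraries of the region where the member is highest. They are the top of a ranking and carry no test. Peg10 was followed most closely by Dlk1, an imprinted gene of chromosome 12 (r = 0.973, rho = 0.979; 0.974 without PON2-deficient male 5), then Zfp92 (r = 0.922) and Gpr101 (r = 0.914). In cortex, which was not used for the ranking, r between Peg10 and Dlk1 was 0.914, and in cerebellum it was 0.216. Dlk1 ranged from 15.9 to 55.9 CPM in PON2-deficient and from 13.7 to 51.7 CPM in wild-type striatum. Calcr was followed by Fbxo10 (r = 0.898), Zcchc12 (0.856) and Gpr101 (0.832), Ppp1r9a by Strn (0.955) and Cyld (0.948), Sgce by Sbds (0.921), Sap18b (0.898) and Maats1 (0.897), and Asb4 by Qpct (0.887), Med20 (0.869) and Tra2a (0.861). Casd1 in cerebellum was followed by Glrb (0.898), Hapln4 (0.857) and Wdr7 (0.845). Over all libraries of striatum these 3 values were 0.229, −0.599 and −0.724, and in cortex they were 0.218, −0.116 and 0.459. For Sgce the 3 values were 0.864, 0.818 and 0.815 without PON2-deficient male 5 of striatum, and in cortex they were 0.262, −0.150 and −0.323. For Asb4 they were 0.142, 0.490 and 0.437 in cortex and 0.162, 0.387 and 0.528 in cerebellum.

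**Figure D5:**
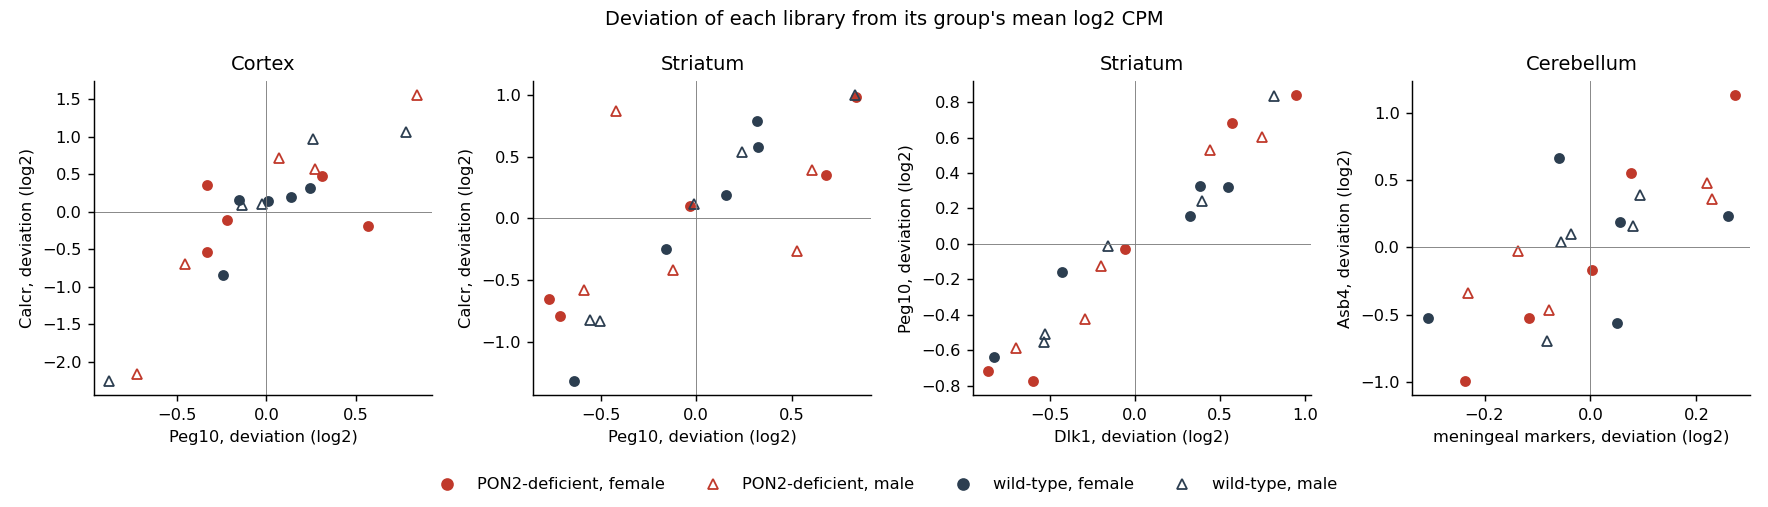
Each point is a library, placed by its deviation from the mean log2 CPM of its group of sex and genotype, in the region named above each panel (PON2-deficient in red, wild-type dark, females filled, males open). Calcr goes with Peg10 in cortex (r = 0.844) and striatum (r = 0.774), Peg10 with Dlk1 in striatum (r = 0.973), and Asb4 with the mean of the meningeal markers in cerebellum (r = 0.726).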

How the data were processed

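The authors deposited expected counts per gene for all 60 libraries, made with Salmon per the submitters' processing notes, which also name edgeR and limma. Which versions, build and gene models were used is not given in the sources used here. They also deposited log2 CPM values and precision weights (a score per gene and library). The deposited log2 values equal log2 of the expected count plus 0.5 per library size, as limma's voom makes them. Tissue was pulverised and total RNA was sequenced in read pairs, per the labels' protocols.

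Here Ensembl IDs were given symbols, positions and exon lengths from GENCODE M21 on GRCm38 (20403 of 20423 IDs matched). Expected counts were rounded, low counts were removed with filterByExpr, and groups were compared with edgeR 4.0.16's quasi-likelihood test (R 4.3.3, TMM scaling, Benjamini-Hochberg adjustment over all genes tested, threshold 0.05). Each region was fitted over its 4 groups of sex and genotype, and region comparisons over all 60 libraries. The fit was tested on simulated data. CPM divides by the TMM-scaled library size, and a length is the union of a gene's exons. Correlations used 100000 resamples. Depth was nearly even (see the counts given above), so counting error limits mainly Asb4 and Calcr.

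Alternatives were DESeq2 1.42.0, limma 3.58.1 on the deposited log2 values and weights, RLE scaling, no filter, a replicate block, marker and transcript length covariates, 1 fit of all libraries, and each library left out in turn. Members, gene lists and marker lists were chosen with earlier results of these data known. Named genes are the members, Pon2, Pon3, the gene of smallest p in each list and region (none was called), and the 3 genes most correlated with each member, of which 1 is not reported here. Promoters came from RefSeq (GRCm38.p6), where 5 of the 7 listed genes matched.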

Additional observations from a re-analysis of the deposited data

Results flagged for a closer look

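Within 72 groups of 5 libraries, 1 value of a member stood far from the other 4 in 5 groups. Chance flags about 1 group in 20, so a few of the 72 would be flagged by chance alone. In striatum Asb4 was at 2.36 CPM in PON2-deficient male 5, the library with low deposited weights, against 0.285 to 0.824 CPM in the other 4 PON2-deficient males. Asb4 was at 3.83 CPM in striatal wild-type male 3, against 1.04 to 1.68 CPM in the other 4 wild-type males. In cortex Calcr was at 0.934 CPM in wild-type female 1, against 1.92 to 2.17 CPM in the other 4 wild-type females, and even that lowest value lay above all 5 PON2-deficient females. Ppp1r9a in cortex was at 247 CPM in PON2-deficient female 3, against 276 to 286 CPM in the other 4 of that group, and at 322 CPM in wild-type female 4, against 281 to 292 CPM in the other 4 of that group. None of 35 interaction tests of members, of genotype with sex or with region, passed (edgeR's quasi-likelihood test, adjusted p threshold 0.05).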

How the results depend on the processing

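Apart from the fits that left 1 library out, 319 values of members were recomputed, and 301 stayed the same. For log2 changes this means the same direction and side of the threshold, and a change without a DESeq2 adjusted p counted as not passing. For the order of levels, also taken in each genotype alone, it means that no member changed place. The cause of the remaining differences was not tested. DESeq2 called Asb4 and Calcr in cortex (2 members) and Asb4 and Casd1 in cerebellum (2 members). The call of Asb4 in cerebellum was lost (0 members) with the choroid plexus, hypothalamic or meningeal marker covariate and in 1 fit of all libraries. The cortical change of Ppp1r9a was 0.0027 by limma and that of Casd1 −0.016 with the length slope. In striatum Peg10 was at 0.018 by limma and 0.018 with the hypothalamic covariate, and Calcr at 0.012 with the choroid plexus and 0.067 with the hypothalamic covariate. In cerebellum Sgce was at 0.012 with the choroid plexus covariate. The order of levels had 2 members exchanged in PON2-deficient cortex and, with the longest transcript as length, 2 in cortex and 2 in cerebellum.

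Over all genes edgeR called 6, 2 and 6 in cortex, striatum and cerebellum between genotypes, against 232, 6 and 242 by DESeq2. In cortex the number was 155 with the length slope, 13 with the hypothalamic, 2 with the choroid plexus and 2 with the meningeal covariate, and 2 in the fit of all libraries. In striatum it was 4 with the meningeal covariate and 4 in the fit of all libraries. In cerebellum it was 18 by limma, 2 with the meningeal covariate and 13 in the fit of all libraries.

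The labels do not say whether libraries of equal replicate number share a mouse, and since not every pair correlated over 0.1 the numbers were not used to pair libraries. Deviations of same-numbered PON2-deficient and wild-type libraries of a region and sex correlated at −0.138 to 0.496, over 0.1 in 13 of 30 pairs, and 11 correlated best with their own number; in striatal males all 5 pairs were over 0.1 (0.111 to 0.496). Across regions this held for 31 of 60 pairs (−0.087 to 0.250), and 36 correlated best with their own among 5 candidates each, a hint from the data that some share a source. The region comparisons treated all libraries as independent, except with the replicate block. With the replicate block edgeR called 30, 1 and 5 genes in cortex, striatum and cerebellum, the striatal change of Calcr was 0.017, and Asb4 in cerebellum was at −1.60 (adjusted p = 0.0438). It changed the call of no member, between genotypes or between regions.

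Leaving out 1 library at a time gave 1 to 26 called genes in cortex, 2 to 3 in striatum and 1 to 49 in cerebellum, and 0 to 1 called members in cerebellum. Between striatum and cortex 5 to 6 members passed and between cerebellum and striatum 5 to 6. Changes near 0 turned sign: Ppp1r9a −0.022 to 0.011 and Casd1 −0.00010 to 0.042 in cortex, Peg10 −0.17 to 0.086 and Calcr −0.18 to 0.14 in striatum, and Sgce −0.043 to 0.00062 in cerebellum. In females they were Casd1 −0.059 to 0.027 in cortex, and Peg10 −0.017 to 0.38, Calcr −0.17 to 0.38 and Ppp1r9a −0.075 to 0.091 in striatum. In males they were Peg10 −0.49 to 0.016 and Sgce −0.11 to 0.030 in cortex, Calcr −0.47 to 0.12 in striatum, and Sgce −0.048 to 0.032 and Ppp1r9a −0.048 to 0.021 in cerebellum.

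With 5 libraries a group and 0.989 to 59.1 counts of Calcr in cortex and 4.26 to 59.3 of Asb4 in cerebellum, changes of these genes carry standard errors of 0.27 or more. Whole tissue gives no allele and no cell type.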

Other observations

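Dlk1, the gene that went most closely with Peg10, overlapped between genotypes in each region. It ranged from 3.05 to 24.8 CPM with a median of 8.32 in PON2-deficient cortex, against 4.05 to 28.2 CPM with a median of 16.6 in wild-type cortex. In cerebellum its median was 8.75 CPM in PON2-deficient and 8.02 CPM in wild-type libraries. Ciliated ependymal cell markers had a lower estimate in PON2-deficient cortex for 13 of 13 tested genes (median log2 change −0.41, 0 called), with Foxj1, the master regulator of motile cilia, at −0.41 (SE 0.11, edgeR adjusted p = 0.115), and for 12 of 14 in cerebellum, whereas 13 of 14 had a higher one in striatum.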
